A study of Mus musculus with 10 samples.

Results

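Open-chromatin regions on mouse chromosomes 1, 8, 15 and 16 are described in C3H10 T1/2, a mesenchymal cell line first grown from mouse embryos. Peaks of 4 ATAC-seq libraries were joined into 1 region wherever they shared a base, and every such region on these chromosomes was kept: 6250 of the 29289 regions on the 20 chromosomes compared. Chromosome 1 held 2032 of them, chromosome 8 held 1567, chromosome 15 held 1548 and chromosome 16 held 1103. The chromosomes were chosen from the peak shares given below, so all counts of peaks in control and knockout cells are descriptions with no test. ATAC-seq marks open chromatin by letting the Tn5 transposase insert sequencing adapters into accessible DNA. Both libraries of one group came from cells labelled GFP, the control, and both of the other from cells labelled with a Piezo1 knockout, each from nuclei of 50000 cells; they are called control 1, control 2, knockout 1 and knockout 2. The series also holds RNA-seq of the same line, with 3 static libraries and 3 under cyclic strain of 0.5 Hz and 10% elongation for 8 h per day over 3 days, in cells with no genetic change given in their labels. The labels do not say whether replicates were separate cultures or whether the knockout cells were 1 clone or a pool, so the p-values below cover the spread between libraries alone, and that spread can be technical in part. Of 15 mesenchymal markers on any chromosome, 14 lay at or above 1 CPM in static cells, CPM being a read count scaled to the size of its library, and Thy1 did not.

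Accessible regions lie mainly at promoters, where transcription starts, and at enhancers, which act on promoters from a distance and differ more between cell types. Piezo1, on chromosome 8, codes for a channel in the cell membrane that opens under mechanical force and lets calcium into the cell. C3H10 T1/2 cells are widely used because they can be driven towards bone, cartilage or fat cells.

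Region classes were set by presence. A region is control-only when it was found in both control libraries and in neither knockout library, knockout-only when the reverse held, and shared when found in all 4. A gene-end region has a base within 1000 bp of either end of an annotated gene. The following promoters show what such regions look like: on each chromosome, the matched promoter whose control-only region (chromosomes 1 and 15) or knockout-only region (8 and 16) had the highest −log10 q, taken at the weaker library, and the promoter of Piezo1. Each is the RefSeq sequence from 250 bases before to 50 bases after a transcript start in build GRCm38.p6, which is mm10, read 5′ to 3′ on the gene's strand. Capitals mark matches, on either strand, to 7 motifs given by their letters: AP-1 TGANTCA, TEAD GGAATG, RUNX TGTGGT, ETS CCGGAAG, NFY CCAAT, SP/KLF GGGCGG and CRE TGACGTCA. Only NFY and SP/KLF letters occur in the windows shown.
Lipt1, control-only, chr1:37871969-37872268, plus strand: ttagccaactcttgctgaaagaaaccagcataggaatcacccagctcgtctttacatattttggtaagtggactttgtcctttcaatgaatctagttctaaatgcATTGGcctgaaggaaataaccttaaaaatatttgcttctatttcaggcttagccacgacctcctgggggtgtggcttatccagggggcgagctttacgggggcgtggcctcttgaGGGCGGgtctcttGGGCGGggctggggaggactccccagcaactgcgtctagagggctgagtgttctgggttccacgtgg
Lgals2, control-only, chr15:78855480-78855779, minus strand: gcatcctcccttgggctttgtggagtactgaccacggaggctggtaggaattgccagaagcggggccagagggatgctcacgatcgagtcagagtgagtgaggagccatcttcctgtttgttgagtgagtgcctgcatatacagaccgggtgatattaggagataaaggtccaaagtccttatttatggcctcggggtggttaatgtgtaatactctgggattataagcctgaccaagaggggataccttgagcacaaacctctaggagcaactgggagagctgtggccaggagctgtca
Nr3c2, knockout-only, chr8:76902080-76902379, plus strand: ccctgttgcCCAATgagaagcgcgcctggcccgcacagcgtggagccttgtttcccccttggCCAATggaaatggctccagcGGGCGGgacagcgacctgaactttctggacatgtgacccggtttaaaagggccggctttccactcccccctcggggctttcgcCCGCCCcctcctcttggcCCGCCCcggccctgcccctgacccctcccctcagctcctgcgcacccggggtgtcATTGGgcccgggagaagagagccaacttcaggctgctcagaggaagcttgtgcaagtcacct
Paxbp1, knockout-only, chr16:91044330-91044629, minus strand: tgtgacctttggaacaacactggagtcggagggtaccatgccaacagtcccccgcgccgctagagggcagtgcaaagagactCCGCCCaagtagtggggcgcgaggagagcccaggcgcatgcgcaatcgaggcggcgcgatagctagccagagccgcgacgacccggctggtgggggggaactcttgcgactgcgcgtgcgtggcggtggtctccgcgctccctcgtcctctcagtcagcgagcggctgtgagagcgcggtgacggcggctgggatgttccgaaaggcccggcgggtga
Piezo1, chr8:122551280-122551579, minus strand: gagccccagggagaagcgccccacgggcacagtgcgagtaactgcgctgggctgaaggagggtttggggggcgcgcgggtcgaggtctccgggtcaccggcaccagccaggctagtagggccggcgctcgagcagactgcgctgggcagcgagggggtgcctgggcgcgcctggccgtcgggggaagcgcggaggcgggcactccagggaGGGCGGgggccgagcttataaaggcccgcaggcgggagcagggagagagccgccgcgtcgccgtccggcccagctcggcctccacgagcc

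Lipt1, a lipoyltransferase of mitochondrial enzymes, had −log10 q of 17.0 in control 1 and 12.4 in control 2 and no peak in either knockout library. Lgals2, a galactose-binding lectin, had 8.12 and 11.9 in the controls and none in the knockouts, and its window held no match to the motifs searched. The Nr3c2 window, at a start inside the gene of the mineralocorticoid receptor, had 8.53 in knockout 1 and 10.5 in knockout 2 and no control peak. Paxbp1, which binds paired-box transcription factors, had 11.4 and 11.7 in the knockouts and no control peak. Its window held 34 CpG, the Nr3c2 window 17, the Lipt1 window 9 and the Lgals2 window 6. Over all promoters overlapped by control-only regions of the 4 chromosomes the median was 20 CpG (70 windows). It was 18 for knockout-only regions (28 windows), 25 for shared regions (973 windows) and 4 where no region overlapped (3859 windows). The SP/KLF letters stood in 71.4% of the control-only and 71.4% of the knockout-only windows, beside 72.9% of the shared windows and 35.9% of all 32619 promoter windows. NFY letters stood in 32.9% of control-only, 35.7% of knockout-only and 46.0% of shared windows, against 37.6% of all. ETS letters stood in 10.0% of control-only, 25% of knockout-only and 24.3% of shared windows, against 8.92% of all promoters. A match is a run of letters and does not show that a factor binds there.

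The targeted gene, Piezo1, lies at chr8:122481698-122551329 on the minus strand. Its promoter region, chr8:122550949-122551642, had a −log10 q of 6.22 in control 1, 14.9 in control 2 and 9.71 in knockout 2, and no peak in knockout 1. A region 4764 bp before its start, chr8:122556093-122557078, at the start of the gene model Gm34847, was found in all 4 libraries, at 7.02 and 20.9 in the controls and 7.48 and 20.9 in the knockouts. Another region within 10000 bp of the gene, chr8:122475838-122476050, lay near its far end, beside Rnf166 and Ctu2, and was found in control 2 alone, at 7.26. The control and knockout values thus overlapped at each of these 3 regions. Promoter peaks do not check whether the gene was edited, and RNA of the knockout cells was not analysed here.

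Chromosomes 1 and 15 held a smaller share of the knockout libraries' peaks than of the control libraries' peaks, and chromosomes 8 and 16 a larger one. The lists held 15978 peaks in control 1, 26652 in control 2, 15980 in knockout 1 and 13610 in knockout 2, so shares of each library's own peaks are compared. Chromosome 1 held 7.20% and 7.19% of the control peaks and 5.51% and 5.02% of the knockout peaks, a ratio of means of 0.731. Chromosome 15 held 5.91% and 5.33% of the control peaks and 4.39% and 4.49% of the knockout peaks, a ratio of 0.789. On chromosome 8 the controls had 4.79% and 5.06% and the knockouts 6.22% and 6.34%, a ratio of 1.28. On chromosome 16 the controls had 3.29% and 3.38% and the knockouts 4.32% and 4.36%, a ratio of 1.30. On none of these chromosomes did the groups overlap. Of all 20 chromosomes, both knockouts lay above both controls on 35% and below them on 25%, and an exact permutation test of 2 against 2 libraries cannot give a two-sided p below 0.33.

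On the log2 scale the ratios were -0.45 ± 0.09 for chromosome 1, 0.35 ± 0.06 for chromosome 8, -0.34 ± 0.11 for chromosome 15 and 0.38 ± 0.03 for chromosome 16, where the error joins the SDs of log2 share within the groups (n = 2 each). Of the 20 chromosomes only X stood further from 0, at -0.89, and the next nearest to 0 were chromosomes 18, at -0.26, and 10, at 0.18. The 4 chromosomes together held 21.2% and 21.0% of the control peaks and 20.4% and 20.2% of the knockout peaks, so the opposite shifts nearly cancel in their sum.

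**Figure D1:**
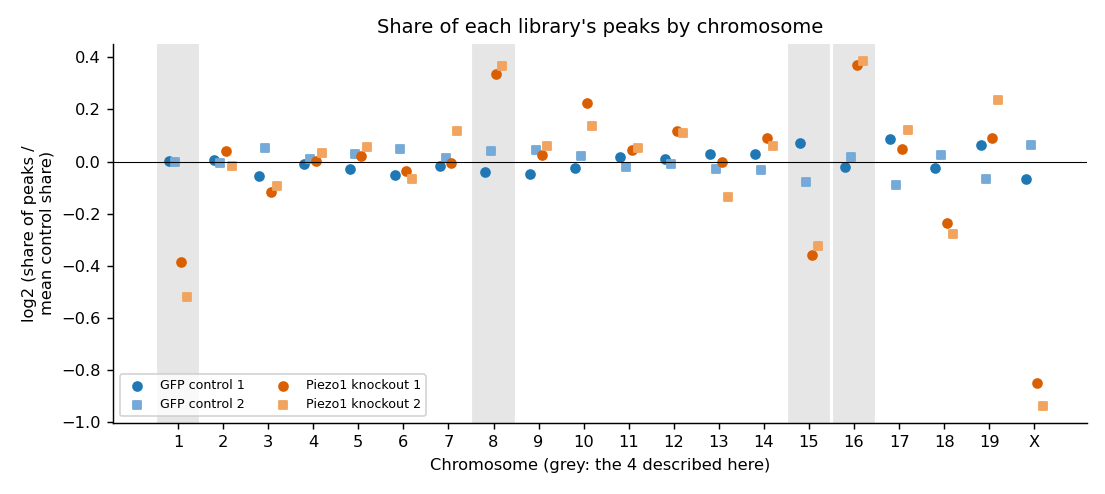
Share of each library's peaks on each chromosome, divided by the mean share of the 2 control libraries, on a log2 axis; points are single libraries (circles replicate 1, squares replicate 2) and grey bands mark chromosomes 1, 8, 15 and 16. Both knockout points lie below both control points on chromosomes 1 and 15 and above them on 8 and 16, with the X chromosome further down.

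The classes differed in the same way. Control-only regions were 304 of the regions of chromosome 1 (15%) and 241 of those of chromosome 15 (15.6%), against 10.6% over all regions of the series. They were 121 on chromosome 8 (7.72%) and 71 on chromosome 16 (6.44%). Knockout-only regions were 12 on chromosome 1 (0.591%) and 20 on chromosome 15 (1.29%), against 1.57% over all regions, and 36 on chromosome 8 (2.30%) and 44 on chromosome 16 (3.99%). Over the other 15 autosomes the control-only percent ran from 8.01 to 12.6 and the knockout-only percent from 0.747 to 2.65, so that chromosomes 1 and 16 lay outside both ranges, on opposite sides. Chromosomes 15 and 8 lay above and below the first range and within the second. The X chromosome, left out of these ranges, lay further out than chromosome 1 on both measures, with 19.5% control-only and 0.354% knockout-only regions. Shared regions were 443 on chromosome 1 (21.8%), 434 on chromosome 8 (27.7%), 363 on chromosome 15 (23.4%) and 286 on chromosome 16 (25.9%), against 26.4% over all regions.

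These counts depend on the lengths of the lists, since control 2 has the most peaks. Without control 1 the control-only regions were 1111, 506, 759 and 337 on chromosomes 1, 8, 15 and 16, and without knockout 2 the knockout-only regions were 87, 203, 89 and 172. With the 13610 peaks of highest q kept in each library, control-only regions were 167 (13%) on chromosome 1 and 144 (13.8%) on 15, but 68 (5.88%) on 8 and 40 (4.87%) on 16, against 7.98% of all regions. Knockout-only regions were then 32 (2.49%) on chromosome 1 and 29 (2.79%) on 15, but 102 (8.82%) on 8 and 90 (10.9%) on 16, against 4.98%. With lists of equal length, knockout-only regions thus outnumbered control-only ones on chromosomes 8 and 16 but not on 1 and 15. In the full lists 772 of the regions of chromosome 1 were found in control 2 alone, as were 375 on chromosome 8, 494 on 15 and 253 on 16. Of the regions of control 1, control 2 also had 90.4% on chromosome 1, 93.2% on 8, 89.5% on 15 and 91.4% on 16. Of those of knockout 1, knockout 2 had 65.3%, 68.3%, 66.4% and 67.2% on the same chromosomes. On all 4 these percents were close to the 92.1% and 68.3% over all regions. Of the regions of control 2, however, control 1 had 51.4% over all chromosomes and 49.5% to 55.3% on the 4. Of those of knockout 2, knockout 1 had 79.7% over all chromosomes and 77.1% to 81.4% on the 4. The percents depend on the lengths of the lists, so they do not show which group's replicates agreed better.

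In peak share, gene-end regions showed smaller shifts than the rest. They made up 37.1% of the regions of chromosome 1, 42.6% on 8, 33.5% on 15 and 35.4% on 16, against 41.0% in all. Of the 2331 gene-end regions on the 4 chromosomes, 1571 lay at a gene's start and 112 at its 3′ end, and for 648 the strand of the gene is not in the tables used here. Their share of gene-end peaks moved from 6.62% and 6.33% in the controls to 5.43% and 5.04% in the knockouts on chromosome 1, a log2 ratio of -0.31, while outside gene ends the log2 ratio was -0.57. On chromosome 15 the log2 ratio was -0.15 at gene ends and -0.45 elsewhere. On chromosome 8 it was 0.23 and 0.47, and on chromosome 16 it was 0.30 and 0.51. In each of these pairs the libraries of the groups did not overlap.

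At gene ends 89 regions of chromosome 1 were control-only (11.8%), 50 of chromosome 15 (9.63%), 28 of chromosome 8 (4.20%) and 5 of chromosome 16 (1.28%), against 6.45% of all gene-end regions. Knockout-only gene-end regions numbered 3 (0.398%) on chromosome 1, 8 (1.54%) on 15, 14 (2.10%) on 8 and 12 (3.07%) on 16, against 1.13%. Outside gene ends 215 regions of chromosome 1 (16.8%) and 191 of chromosome 15 (18.6%) were control-only, 93 of chromosome 8 (10.3%) and 66 of chromosome 16 (9.27%), against 13.4%. Knockout-only regions there were 9 (0.704%), 12 (1.17%), 22 (2.44%) and 32 (4.49%) in the same order, against 1.87%. The smaller shift at gene ends thus holds for peak shares, but not for every class percent set beside its own background. Control-only regions of chromosomes 1 and 16, for example, stood relatively further from their background at gene ends than elsewhere. Shared regions were 972 of the 2331 gene-end regions (41.7%, against 41.5% of all gene-end regions) and 554 of the 3919 others (14.1%, against 15.9%).

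**Figure D2:**
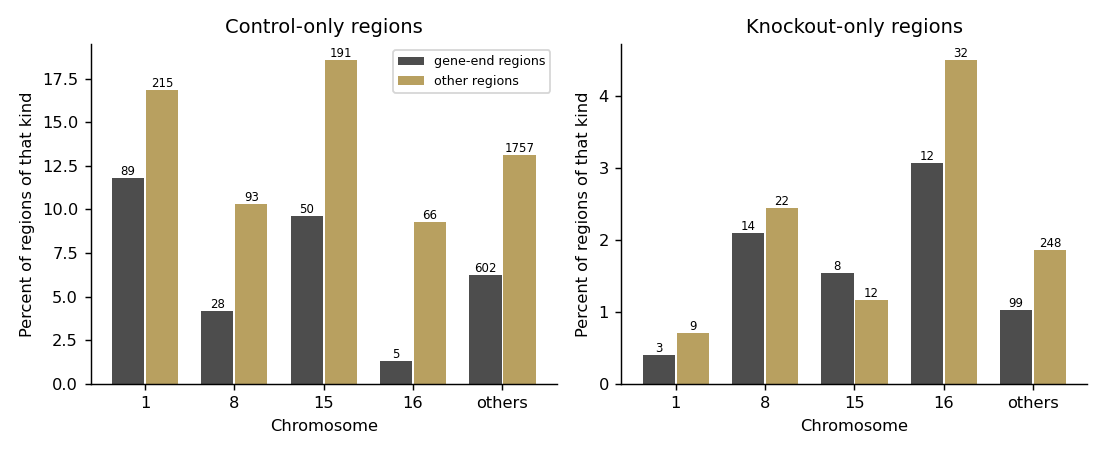
Percent of gene-end regions (dark) and of other regions (light) that were control-only (left) or knockout-only (right), by chromosome; numbers above the bars are counts of regions, and others means all other chromosomes. Chromosome 16 has 5 control-only gene-end regions, and its knockout-only bars are the tallest on the right.

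The shifts ran through most 10 Mb bins of each chromosome and did not come from single places, but on chromosome 15 they were uneven. There the 759 regions from 70 to 110 Mb, a stretch set after the values were seen, had a ratio of 0.956 with overlapping libraries. Bins of 10 Mb with at least 10 regions were compared by their share of each library's peaks. On chromosome 1 both knockouts lay below both controls in 19 of 20 bins, and on chromosome 15 in 9 of 11, against 36.5% of all 263 bins of the series. On chromosome 8 both knockouts lay above both controls in 11 of 13 bins, and on chromosome 16 in 7 of 10, against 27.4% of all bins. No bin of chromosomes 1 and 15 had both knockouts above, and none of 8 and 16 had both below. The median log2 ratio over bins was -0.55 on chromosome 1, 0.36 on 8, -0.49 on 15 and 0.42 on 16. With gene-end peaks alone both knockouts lay below in 15 of 19 bins of chromosome 1 and 6 of 11 of chromosome 15, against 22.7% of all bins. They lay above in 9 of 13 bins of chromosome 8 and 7 of 8 of chromosome 16, against 21.5%. With the other peaks alone the counts were 15 of 19 and 7 of 11 below, against 32.4%, and 9 of 12 and 6 of 9 above, against 29.3%; 1 bin of chromosome 15 had both knockouts above.

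**Figure D3:**
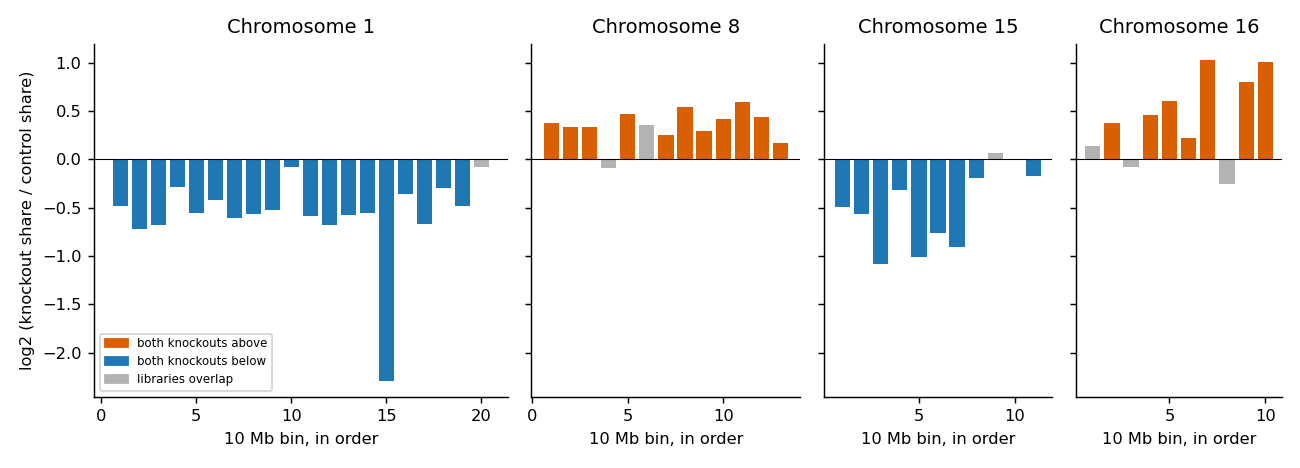
Log2 ratio of the mean knockout to the mean control share of peaks in 10 Mb bins, in order from the start of each chromosome. Orange bars have both knockout libraries above both controls, blue bars both below, and grey bars libraries that overlap; the deepest bar is the bin of chromosome 1 with 12 and 25 control peaks and 2 and 3 knockout peaks.

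Chromosome 1 was low nearly throughout. Its lowest bin, 140 to 150 Mb, held 12 and 25 control peaks but only 2 and 3 knockout peaks, a log2 ratio of -2.29. Genes nearest to its 6 control-only regions included the potassium channel gene Kcnt2, Cdc73, a subunit of the Paf1 complex of transcription, Rgs2, which damps G-protein signals, and the phospholipase Pla2g4a. The next lowest bin, 10 to 20 Mb, had 18 and 33 control and 10 and 11 knockout peaks, a log2 ratio of -0.72, with control-only regions nearest to Sulf1, Eya1, Stau2 and Ube2w. The least shifted bins were 90 to 100 Mb and 190 to 200 Mb, both at -0.08. The first held 83 and 135 control peaks and 80 and 64 knockout peaks, and 16 control-only and no knockout-only regions, among them regions nearest to Col6a3, a collagen chain, and Twist2, a mesenchymal transcription factor. In the second the libraries overlapped.

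The control-only region of chromosome 1 with the highest q, chr1:153572103-153573226, lay between genes, 22389 bp from the start of Npl, with −log10 q of 21.4 and 24.5. Of its 12 knockout-only regions the strongest, chr1:191254319-191254958, lay between genes, 51829 bp from Nenf, its nearest named gene, at 8.39 and 9.02. At the strongest shared region, at the start of the calpain gene Capn10 (chr1:92934014-92935027), −log10 q was 41.7 and 52.4 in the controls and 35.9 and 35.1 in the knockouts. These q and fold values are the authors' values for each peak, and depend on the depth of the library, so they rank peaks within a list.

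Chromosome 15 had 2 stretches that differed, which were set apart after their values were seen. Over the first 7 bins, 0 to 70 Mb, the chromosome held 2.85% and 2.71% of the control peaks and 1.78% and 1.65% of the knockout peaks, a ratio of 0.618. Over 80 to 110 Mb it held 2.17% and 1.83% of the control peaks and 1.91% and 2.06% of the knockout peaks, a ratio of 0.990 with overlapping libraries. The bin between them, 70 to 80 Mb, had a ratio of 0.876. In the first stretch 157 of 789 regions (19.9%) were control-only, against 60 of 529 (11.3%) in the last. Outside gene ends the first stretch had a ratio of 0.545, with 134 of 593 regions control-only, while at gene ends it was 0.865. In bins of 5 Mb the ratio was below 1 in each of the 12 bins with enough regions before 70 Mb, from a log2 of -3.48 at 20 to 25 Mb, on 4, 12, 1 and 0 peaks, to -0.06 at 0 to 5 Mb.

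The lowest 10 Mb bins of chromosome 15 were 20 to 30 Mb, with 40 and 70 control and 20 and 16 knockout peaks, and 40 to 50 Mb, with 39 and 65 against 20 and 16. Their log2 ratios were -1.08 and -1.01. Control-only regions there lay nearest to Cdh18, Basp1, Fbxl7, Ank, which exports pyrophosphate and restrains mineralisation, and Trio in the first. In the second they lay nearest to Zfpm2, Oxr1, Abra, Angpt1, a ligand of the Tie2 receptor, Emc2, Tmem74, Trhr, Pkhd1l1 and Sybu. At 50 to 55 Mb, a 5 Mb bin, 54 and 92 control peaks stood against 21 and 17 knockout peaks, and 25 of 95 regions were control-only. In the highest bins, 80 to 90 and 90 to 100 Mb, the log2 ratios were 0.06 and 0.00 and the libraries overlapped. The second of these still held 22 control-only and no knockout-only regions, some of them nearest to Vdr, the vitamin D receptor, and Col2a1, the collagen of cartilage.

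The strongest control-only region of chromosome 15, chr15:102770740-102771856, lay inside the gene model Gm36560, 23831 bp from the start of the non-coding RNA gene Cistr, at −log10 q of 15.8 and 31.9. A region inside Tspo, which codes for a protein of the outer mitochondrial membrane, had 15.4 and 19.03 in the controls. Among knockout-only regions, that 6009 bp from the start of Serhl had 9.14 and 8.92 in the knockouts. The best-ranked shared region of the 4 chromosomes was that at the start of Sp1 (chr15:102405276-102406480), a zinc-finger factor that binds the GGGCGG letters. Its −log10 q was 48.1 and 83.3 in the controls and 39.7 and 48.4 in the knockouts.

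On chromosome 16 the knockout-to-control ratio was high in the last bin. That bin, 90 to 100 Mb, held 41 and 93 control peaks and 93 and 86 knockout peaks, which is 0.257% and 0.349% of the control lists against 0.582% and 0.632% of the knockout lists, a ratio of 2.00. At its gene ends 15 and 35 control peaks stood against 39 and 39 knockout peaks, a ratio of 1.94. Of its 127 regions 11 were knockout-only (8.66%) and 3 control-only. The nearest named genes of those 11 were Paxbp1, the interferon receptor gene Ifnar2, Dnajc28, the endocytic scaffold gene Itsn1, Slc5a3, which takes up inositol, Cbr3, the transcription factor gene Ets2, Psmg1, a chaperone of the proteasome, the protease gene Tmprss2 and C2cd2. The 3 control-only regions lay nearest to Ifnar2, Runx1 and Ets2, so Ifnar2 and Ets2 were named for both classes. Within 10000 bp of Ets2 itself only shared regions were found. The bin at 60 to 70 Mb had a slightly higher ratio, 2.04, on only 4 and 10 control and 11 and 8 knockout peaks. Without the last bin, the first 90 Mb of chromosome 16 still had a ratio of 1.23, with 3.04% and 3.03% of the control peaks and 3.74% and 3.73% of the knockout peaks.

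Parts of chromosome 16 went the other way. At 20 to 30 Mb the controls had 123 and 172 peaks and the knockouts 108 and 91, with 28 control-only and 4 knockout-only regions and overlapping shares. In bins of 5 Mb its second part, 25 to 30 Mb, had both knockouts below both controls, with 40 and 51 peaks against 25 and 23. The bin at 70 to 80 Mb had the lowest log2 ratio, -0.26, on 12, 27, 13 and 9 peaks, and its libraries overlapped. The strongest control-only region of the chromosome, chr16:25900289-25901121, lay 8201 bp from an end of Trp63, at −log10 q of 20.2 and 27.2. The strongest knockout-only regions lay near gene models with no assigned name, at 1588 and 2057 bp, and far from named genes. One, chr16:29816621-29817288, 153494 bp from the end of Opa1, had 25.3 and 13.7, and one, chr16:57927750-57928762, 173013 bp from the start of the collagen gene Col8a1, had 17.5 and 18.7. At the shared regions at the starts of the kinase gene Gsk3b and the zinc-finger gene Zbtb20, −log10 q was 28.7 and 62.8, and 37.6 and 48.6, in the controls. In the knockouts it was 35.9 and 44.4, and 38.8 and 38.

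On chromosome 8 the highest bins were 100 to 110 Mb, with 65 and 145 control and 111 and 101 knockout peaks, and 70 to 80 Mb, with 85 and 133 against 116 and 106. Their ratios were 1.51 and 1.46. Knockout-only regions of the first lay nearest to Cdh5, Pdp2, Ces4a, Fhod1 and Zfhx3, and those of the second to Klf2, a transcription factor known to answer to fluid flow, and Nr3c2. Cdh5 was also named for control-only regions of the first bin, and the only region within 10000 bp of Klf2 was shared. The lowest bin, 30 to 40 Mb, was at -0.09 and its libraries overlapped, with 11 control-only regions near Nrg1, Rbpms, Tnks, Cldn23, Prag1, Lonrf1 and Dlc1. The bin that holds Piezo1, 120 to 130 Mb, had the next lowest log2 ratio, 0.17, on 159 and 246 control and 166 and 153 knockout peaks. At gene ends its ratio was 1.01, on 71, 93, 70 and 70 peaks. This bin also had the most control-only regions of the chromosome, 32 of its 272, some of them nearest to the forkhead genes Foxf1, Foxc2 and Foxl1. The strongest control-only region of chromosome 8 lay inside Nfix, a transcription factor gene, at chr8:84742045-84742779, with −log10 q of 21.2 and 27.7. A knockout-only region near Thap1 had 10.1 and 10.2, and the shared region at the start of Evi5l had 35.2, 50.8, 34.7 and 50.2.

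Regions found in all 4 libraries showed the same order in their q values, while their fold enrichment differed much less between groups. The median −log10 q of the 443 shared regions of chromosome 1, divided by that of all shared regions in the same library, was 1.14 and 1.08 in the controls and 0.940 and 0.890 in the knockouts. For the 363 of chromosome 15 it was 1.12 and 1.15 in the controls and 0.982 and 0.954 in the knockouts. The 434 of chromosome 8 had 0.908 and 0.912 in the controls and 1.01 and 1.10 in the knockouts. The 286 of chromosome 16 had 0.954 and 0.934, then 1.15 and 1.18. The relative fold enrichment lay between 0.950 and 1.04 in every library on these chromosomes. It was 1.04 and 1.01 in the controls and 1.01 and 1.00 in the knockouts on chromosome 1, and 0.972 and 0.9504, then 0.957 and 0.950, on chromosome 15. On chromosome 8 it was 0.966 and 0.959, then 0.975 and 0.976, and on chromosome 16 it was 0.991 and 0.981, then 1.00 and 1.01. The groups kept the order of the shares without overlap on chromosomes 1, 8 and 16, by small steps, and overlapped on 15. Fold enrichment is set against the local background of the same library, while q also depends on how many reads the place holds. The number of copies of these chromosomes in either group of cells was not measured.

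**Figure D4:**
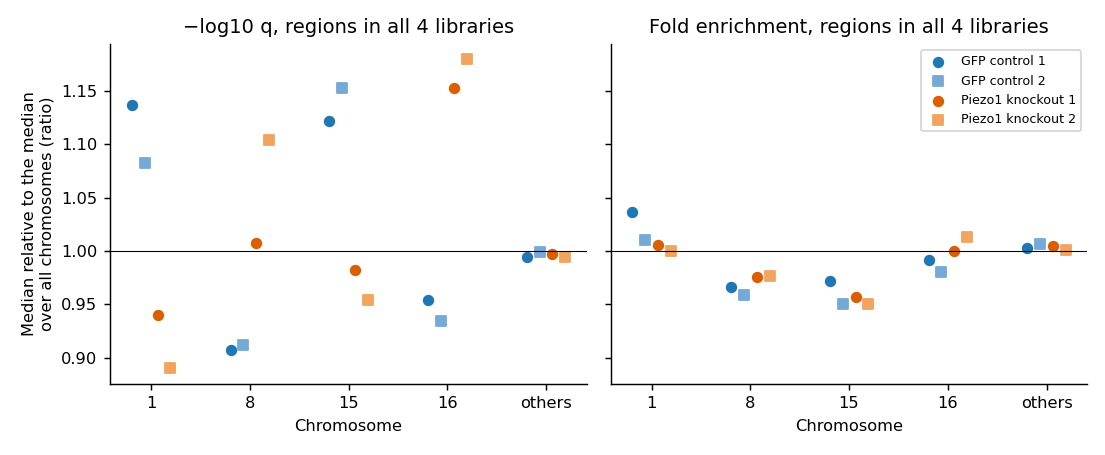
Median −log10 q (left) and fold enrichment (right) of regions present in all 4 libraries, by chromosome, each divided by the median over all chromosomes in the same library; points are libraries. On the left the control points lie above the knockout points on chromosomes 1 and 15 and below them on 8 and 16, while on the right all points lie between 0.950 and 1.04.

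Several genes gathered more than 1 region of the same class. Of the named protein-coding genes with any region within 10000 bp, 191 of 751 had a control-only one on chromosome 1 (25.4%) and 131 of 535 on 15 (24.5%), against 16.1% over all chromosomes. They were 80 of 708 on chromosome 8 (11.3%) and 39 of 414 on 16 (9.42%). A knockout-only one lay near 10 (1.33%), 15 (2.80%), 43 (6.07%) and 33 (7.97%) of the genes of chromosomes 1, 15, 8 and 16, against 3.15%. At least 3 control-only regions lay near 5 genes of chromosome 1 (0.666%), 11 of 15 (2.06%), 3 of 8 (0.424%) and 5 of 16 (1.21%), against 0.626%. The genes named next were chosen after their values were seen. All 4 regions near Sdc2, which codes for syndecan 2, a heparan sulfate proteoglycan of the cell surface, were control-only. They had −log10 q of 5.89 and 6.62 beside the gene's end, 7.47 and 6.5 just inside it, and 4.14 and 11.9, and 5.21 and 11.4, further in. All 3 regions of Slc38a4, an imprinted amino acid transporter gene, were control-only, at 3.37 and 6.07, 8.17 and 8.06, and 6.54 and 5.72. On chromosome 16 the neighbours St6gal1, a sialyltransferase, and Masp1, a protease of complement, had no knockout peak at any of their 6 and 5 regions, of which 3 each were control-only.

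Dnm3 on chromosome 1, a dynamin, and Kalrn on chromosome 16, an exchange factor of small GTPases, had the most control-only regions, 6 each. They are long genes, of 495872 and 604205 bp, with 18 and 25 regions in all, and the counts are not scaled to length. Dnm3 had 9 and 15 regions in the controls and 3 and 1 in the knockouts, and Kalrn 14 and 21 against 10 and 11. Adamts12, a matrix protease gene, had 5 and 12 against 1 and 1. Nfix had 6 and 13 against 2 and 2, and 4 of its 13 regions were control-only although it lies on chromosome 8. At least 2 knockout-only regions lay near 2 genes only, 1 of chromosome 8 (0.141%) and 1 of 16 (0.242%), against 0.135% over all chromosomes. Sec22a on chromosome 16, of transport between membranes, had 1 region in each control and 4 and 3 in the knockouts. Ier2 on chromosome 8, an immediate-early gene, had 1 and 2 in the controls and 3 and 3 in the knockouts. Of the genes named above, St6gal1, Masp1, Kalrn and Nfix went against the direction of their chromosome. The other genes of chromosomes 8 and 16 with at least 3 control-only regions were Lpp, Slc12a8, Wwp2 and Cmip. Lpp had 9 and 15 regions in the controls and 9 and 9 in the knockouts, and Slc12a8 5 and 11 against 3 and 4. Wwp2 had 5 and 11 against 4 and 6, and Cmip 4 and 7 against 2 and 3. Lpp and Cmip also had 1 knockout-only region each.

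Gene lists fixed for the 4 chromosomes were counted in the same way. Of all named protein-coding genes, 751 of 1123 on chromosome 1 and 708 of 972 on chromosome 8 had a region within 10000 bp. On chromosomes 15 and 16 they were 535 of 737 and 414 of 611. Whether any list differs from these shares was not tested. Of 33 patterning and lineage transcription factors, 24 had a region within 10000 bp, 8 a control-only and none a knockout-only one. Prrx1, which marks limb mesenchyme, had 2 and 6 regions in the controls and none in the knockouts. Trps1 had 3 and 8 against 2 and 1, whereas Runx1, the blood and skeletal factor on chromosome 16, had 4 and 8 against 8 and 6, which overlap. Others did not go with their chromosome. Nfix on chromosome 8 had 6 and 13 against 2 and 2, and Foxc2 there had a control-only gene-end region. Zbtb20 on chromosome 16 had 1 and 6 against 2 and 1, which overlap. The factors named are examples and do not give the direction of the list. All 30 genes of the extracellular matrix list had a region, 12 a control-only and 3 a knockout-only one. Ccn3, a matricellular protein, had 1 region, control-only, at 10.3 and 19.1. Adamts1, a matrix protease of chromosome 16, had a knockout-only region at its start (7.72 and 7.53). Cdh11, a mesenchymal cadherin of chromosome 8, had 0 and 1 regions in the controls and 3 and 1 in the knockouts. Its groups met at 1, and none of its regions was control-only or knockout-only. Near Col4a1, Col4a2 and Mmp2, also on chromosome 8, lay control-only regions and no knockout-only one. Ccn4 on chromosome 15 had 1 control-only and 1 knockout-only region.

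Of 32 growth factor and cytokine genes, 25 had a region, 10 a control-only and 1 a knockout-only one. Angpt1 had 3 and 7 regions in the controls and 1 and 0 in the knockouts. Of 20 immediate-early, redox and stress genes 19 had a region, 4 a control-only and 1, Btg2, a knockout-only one, which also lies on chromosome 1. Myc had 3 and 3 regions in the controls and 0 and 1 in the knockouts. Over the regions near each list, 16.5% of the 97 near transcription factors, 13.4% of 112, 17.4% of 115 and 7.69% of 52 were control-only, beside 10.6% of all regions. In the same order 0, 3 (2.68%), 1 (0.870%) and 1 (1.92%) were knockout-only, beside 1.57% of all regions. Of 12 ion channel genes 3 had a region and none was control-only or knockout-only. Of 27 epithelial, blood and vessel, and neural marker genes on these chromosomes none had a gene-end region. Within 10000 bp, however, 5 of 9 epithelial, 5 of 9 blood and vessel and 2 of 9 neural genes had a region. In each of these lists 1 gene had a control-only region and 0 a knockout-only one. In static cells 20 of these 27 lay under 1 CPM, 8 of them at 0.

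The comparison was repeated over the same genes in each library, with a set chosen by RNA and not by peaks: protein-coding genes with at least 10 CPM in static cells. On chromosome 1, 360 and 431 of 524 such genes had a gene-end peak in the controls (68.7% and 82.3%) and 326 and 312 in the knockouts (62.2% and 59.5%). On chromosome 15 the shares of 378 genes were 67.7% and 76.5%, then 62.2% and 63.2%. On chromosome 8 they were 59.9% and 79.96% of 524 genes, then 69.7% and 70.04%, and on chromosome 16 they were 60.9% and 79.7% of 276 genes, then 72.1% and 76.4%. On the other autosomes control 1 had 59.5%, control 2 76.9% and both knockouts 62.7%. Groups overlapped on chromosomes 8 and 16 and on the other autosomes, with control 2 highest, and did not overlap on 1 and 15. Against control 1, whose list is as long as that of knockout 1, the knockouts were lower on chromosomes 1 and 15 and higher on 8, 16 and the other autosomes.

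**Figure D5:**
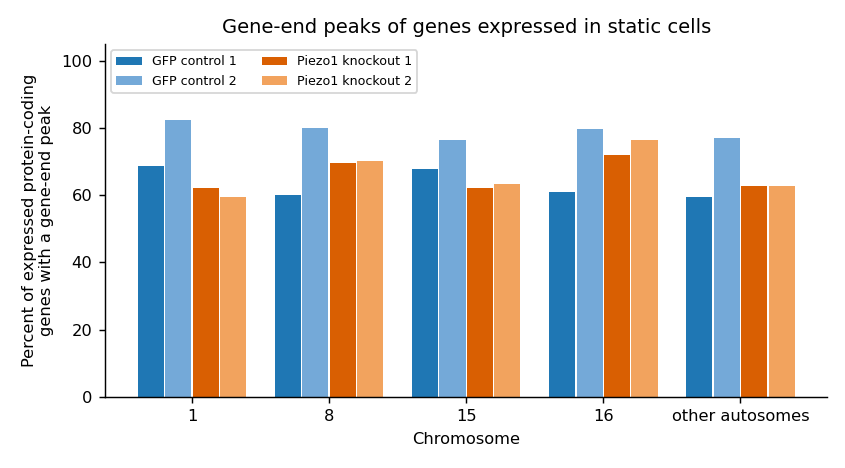
Percent of protein-coding genes with at least 10 CPM in static cells that have a gene-end peak in each of the 4 ATAC-seq libraries, by chromosome, on an axis from 0. Control 2 is highest in each group of bars, and the knockouts lie below control 1 on chromosomes 1 and 15 and above it on 8 and 16.

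RNA-seq under cyclic strain is the readout that did not choose the chromosomes. It compares strain with static culture in the same line and says nothing of the knockout. Library totals lay between 36150738 and 41024689 counts, and 15335 genes were tested with edgeR's quasi-likelihood test, with calls at a Benjamini-Hochberg adjusted p under 0.05. Of 1804 tested genes with a gene-end region on the 4 chromosomes, 152 were higher under strain (8.43%) and 99 lower (5.49%), against 5.94% and 7.39% of all tested genes. Over genes with a gene-end region on any chromosome the percents were 6.43 higher and 5.63 lower of 9388. By chromosome, 52 rose and 29 fell of 568 on chromosome 1, 37 and 33 of 545 on 8, 34 and 21 of 372 on 15, and 29 and 16 of 319 on 16. Among the 117 tested genes with a control-only and no shared gene-end region 16 rose and 4 fell. Among the 26 with a knockout-only and no shared one 2 rose and 1 fell. The median log2 change was 0.06 over the 1804 genes and 0.00 over all tested genes. Of 912 tested genes of the 4 chromosomes with no gene-end region, 60 were higher (6.58%) and 98 lower (10.7%). Over all 14872 tested genes matched to the annotation, with or without such a region, 6.09% were higher and 7.48% lower. The share for genes with no gene-end region on all chromosomes is not given here, so these counts are not read as a trait of the 4. Of the called genes with a gene-end region 60.6% were higher, and 71.1% when scaled by library size alone, beside 44.5% and 55.6% of the called genes of the whole table. Leaving out static replicate 1, strain replicate 2 or strain replicate 3 left 55, 71 or 67 higher and 49, 52 or 48 lower.

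The largest rises and falls among genes with a gene-end region were named by rule for each chromosome, and every gene said below to rise or fall passed an adjusted p under 0.05 with edgeR. On chromosome 1 Ptgs2, the inducible cyclooxygenase, which has a shared region at its end, had 40.2, 40.4 and 27.6 CPM in static cells and 102, 101 and 92.1 under strain. Its log2 change was 1.45 ± 0.15 (SE, adjusted p = 0.000208, edgeR). Inha, the inhibin alpha subunit, fell from 16.7, 11.3 and 15.1 CPM to 4.08, 3.98 and 6.64. Ugt1a6a, a glucuronosyltransferase whose only gene-end region is control-only, rose from 11.4, 10.6 and 9.44 CPM to 23.5, 28 and 24.7. In none of the 3 did the groups overlap.

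On chromosome 8 Nqo1, a quinone reductase of the oxidative stress response, rose from 18.1, 18.5 and 18.0 CPM to 71.7, 55.1 and 61.1, a log2 change of 1.78 ± 0.12 (SE, adjusted p = 1.85e-05, edgeR). Ankrd37 and Egln1, both known targets of the hypoxia response, fell, the first from 22.5, 22.9 and 33.5 CPM to 4.84, 2.43 and 3.86. Egln1, an oxygen-sensing prolyl hydroxylase, fell from 320, 270.2 and 333 CPM to 125, 126 and 129. Piezo1 itself rose, from 499.7, 562 and 392 CPM to 626, 729 and 751, with a log2 change of 0.53 ± 0.14 (SE, adjusted p = 0.0313, edgeR). That call was lost without static replicate 1, strain replicate 2 or strain replicate 3, with a highest adjusted p of 0.118 by edgeR.

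On chromosome 15 Ptger4, a receptor of prostaglandin E, rose from 2.71, 3.43 and 2.93 CPM to 9.01, 7.60 and 5.96, and its 1 gene-end region was control-only, at −log10 q of 7.19 and 10.1. Triobp, which binds actin, fell from 163, 139 and 149 CPM to 73.6, 77.8 and 73.4. On chromosome 16 Tfrc, the transferrin receptor, rose from 52.4, 53.4 and 47.6 CPM to 96.9, 103 and 92.0. Slc5a3, with a knockout-only region over its start, rose from 9.89, 11.5 and 6.91 CPM to 19.1, 18.96 and 13.5, and was no longer called without static replicate 1, strain replicate 1 or strain replicate 2, with a highest adjusted p of 0.0673 by edgeR. Gbe1, the glycogen branching enzyme, fell from 50.1, 41.6 and 43.4 CPM to 18.3, 17.6 and 15.7. In each of these genes the strain libraries lay apart from the static ones.

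Genes that carried exclusive regions were not all changed by strain. Sdc2, with its 4 control-only regions, had 409, 378 and 393 CPM in static and 430, 385 and 351 CPM in strained cells, a log2 change of -0.02 ± 0.11 (SE, adjusted p = 0.936, edgeR). Prrx1 had 363, 360 and 330.1 CPM, then 369, 435 and 398, and did not pass (adjusted p = 0.238, edgeR). Ccn3 rose from 462, 500.4 and 441 CPM to 564, 687 and 595.3, a log2 change of 0.39 (adjusted p = 0.0387, edgeR), a call lost without static replicate 1 or 3 or strain replicate 2 or 3, with a highest adjusted p of 0.167 by edgeR. Adamts1, with its knockout-only region, had 49.5, 55.9 and 41.0 CPM, then 43.2, 50.9 and 43.2, and did not pass (adjusted p = 0.670, edgeR). Large falls also came in genes with little or no called open chromatin. Fmod, a collagen-binding proteoglycan with 1 region, found in control 2, fell from 1703, 1815 and 1838 CPM to 349, 454 and 363.5. Igfbp5, which binds insulin-like growth factors and has no region within 10000 bp, fell from 28.5, 28.8 and 21.3 CPM to 0.767, 1.44 and 0.315.

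The counts by list stand beside 5.94% higher and 7.39% lower among all tested genes. Of the lists, 2 of 29 tested extracellular matrix genes rose, Ccn3 and Ext1, and 8 fell, and 0 of 30 transcription factors rose and 3 fell, Sp7, Hes1 and Foxc2. The osteoblast factor Sp7 fell from 31.0, 32.1 and 32.3 CPM to 6.88, 10.7 and 10.6. Of 29 growth factor and cytokine genes 5 rose and 6 fell, of 20 immediate-early, redox and stress genes 4 rose and 4 fell, and of 6 tested channel genes 1 rose, Piezo1, and 2 fell, Kcnk2 and Tmem63a. Foxc2 and Tmem63a were not called when scaled by library size alone. Foxc2 was also lost without static replicate 1 or 3 or strain replicate 2 or 3, Ext1 without static replicate 1 or 2 or strain replicate 2 or 3, and Gap43 without static replicate 1. Tmem63a was lost without any replicate except static replicate 3. Among markers of other cell types 2 epithelial genes fell, Cdh1 and Trp63, 2 blood and vessel genes rose, Cd80 and Itgb7, and the neural gene Gap43 fell. The summed level ran from 33.3 to 37.7 CPM in static and 19.04 to 23.8 CPM in strained cells for the epithelial list. It ran from 10.0 to 12.6 and from 19.98 to 26.3 CPM for the blood and vessel list, and from 6.00 to 8.01 and from 2.92 to 3.77 CPM for the neural list. Of 14 tested mesenchymal markers on any chromosome 8 fell and none rose, and 5 fell without static replicate 1 or strain replicate 3. Counts by list with 1 library left out were added after seeing the data. The growth factor list had 0, 2, 1 and 1 rises without static replicate 1, static replicate 3, strain replicate 2 and strain replicate 3, and 3 falls without strain replicate 3. The matrix list had 8 to 10 falls without any 1 library, and no rise without static replicate 1, strain replicate 2 or strain replicate 3. The immediate-early, redox and stress list had 2 falls without static replicate 1 or 3 or strain replicate 1 or 2. The part of these shifts in the other RNA results was not tested.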

How the data were processed

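Per the submitters' processing notes, ATAC-seq reads were handled with Trim Galore 0.6.5, Bowtie2 2.4.2 and MACS2, and RNA-seq reads with Trim Galore 0.6.5, STAR, HTSeq and DESeq2, on mm10. Further versions, thresholds and the strand setting: not given in the sources used here. For each library the authors deposited a list of peaks holding a display score, a fold enrichment (a ratio to local background), −log10 p and −log10 q for each peak, and 1 table of read counts per gene symbol. Peak lists do not give read depth, so that of ATAC-seq is unknown.

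The 4 chromosomes, the gene lists and the rules were chosen with earlier results of these data known. Peaks were merged at an overlap of at least 1 bp in Python 3.11.15. Genes and strands came from RefSeq tables of GRCm38.p6 (49554 genes, 26794 with a strand from the promoter table). Of 46095 gene symbols counted, 41237 matched by symbol and 1112 by synonym. Named regions were, on each chromosome, the 3 control-only and 3 knockout-only regions with the highest lower −log10 q, the 2 shared regions of best mean rank and the 2 highest and 2 lowest bins, besides regions near Piezo1. Named genes were list members with an exclusive region within 10000 bp or among the 2 largest rises or falls of a list or chromosome; a few of the many are printed.

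Counts passing filterByExpr were scaled by TMM and tested, two-sided, by glmQLFit and glmQLFTest of edgeR 4.0.16 under R 4.3.3, with DESeq2 1.42.0 as an alternative. CPM is the count scaled to the TMM library size. As the strand setting is unknown, a gene's reads cannot be separated from those of a gene overlapping it on the other strand. Scripts were tested on simulated data. Alternatives were stricter or equally long peak lists, leaving out each library, other merging, bin sizes and gene-end distances, and for RNA other scaling, no filter, DESeq2 and a replicate block.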

Additional observations from a re-analysis of the deposited data

How the results depend on the processing

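The log2 ratio of peak shares kept its direction on all 4 chromosomes under every alternative run, and leaving out 1 library at a time gave -0.52 to -0.39 on chromosome 1, 0.31 to 0.39 on 8, -0.41 to -0.26 on 15 and 0.36 to 0.40 on 16. On chromosome 16 it moved from 0.38 to 0.45 with peaks of −log10 q of at least 5 and to 0.44 with summed peak length. Counts of exclusive regions moved most. Cutting every list to its 13610 strongest peaks left 167, 68, 144 and 40 control-only regions on chromosomes 1, 8, 15 and 16, and 32, 102, 29 and 90 knockout-only ones. Leaving out 1 library gave 363 to 1111, 148 to 506, 293 to 759 and 99 to 337 control-only regions, and 15 to 87, 40 to 203, 23 to 89 and 48 to 172 knockout-only ones, since 1 library then stands for its group. Bins of 5 Mb gave 44 lower and 25 higher of 94, and bins of 20 Mb 15 lower and 11 higher of 28. Gene-end regions were 32.8%, 38.2%, 28.7% and 30.6% of the regions of chromosomes 1, 8, 15 and 16 at a distance of 500 bp, 44.4%, 50.5%, 41.9% and 43.9% at 2500 bp, and 28.1%, 28.7%, 18.4% and 28.3% with gene starts alone.

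For RNA, leaving out 1 library gave 55 to 172 genes higher and 48 to 102 lower. Library size alone gave 194 and 79, DESeq2 214 and 140, and no filter on low counts 227 and 130. With the replicate block 258 were higher and 156 lower, and the cause was not tested. The replicate numbers share no stated culture or day, and the deviations of same-numbered libraries correlated at 0.0278, 0.208 and 0.0942. For ATAC-seq, whose numbers name no shared culture either, the mean log2 ratio within replicate numbers, an alternative chosen after seeing the data, was -0.45, 0.35, -0.34 and 0.38 on chromosomes 1, 8, 15 and 16. Of 40 named genes called, 28 kept the call in every alternative run, 12 lost it in at least 1, and 0 reversed.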
